A study of Homo sapiens with 28 samples.

Results

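Open chromatin of AN3CA cells that expressed ARID1A without its first intrinsically disordered region (delIDR1, 2 libraries) was compared with that of AN3CA cells that expressed wild-type ARID1A (WT, 2 libraries). The 4 libraries were taken by their titles from the 28 ATAC-seq libraries of the study. The 2 empty-vector libraries with replicate numbers 1 and 2 served as the floor, since each replicate number of delIDR1, WT and empty vector carried the same date code in its peak names. AN3CA is an established human endometrial carcinoma line, and all groups were this line with a different construct: the delIDR1 truncation mutant, ARID1A with a mutated ARID domain (DBDmut), the ARID1A truncation called CBR, wild-type ARID1A, wild-type ARID1B or an empty vector. DBDmut and CBR, 2 libraries each with the same date codes, and wild-type ARID1B, 2 libraries set against empty-vector replicates 3 and 4, were used for side-by-side values. The labels do not say whether replicates came from separate cultures, so the spread between them may be technical. They also do not state the promoter of the constructs, whether a line was 1 clone, or how much protein each construct gave, and the amount of protein cannot be told apart from its form here.

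ARID1A is the largest subunit of the canonical BAF complex (cBAF), an ATP-driven SWI/SNF remodeler that moves or evicts nucleosomes and opens chromatin mainly at enhancers. Its long N-terminal part is largely disordered and is split by the ARID domain, which binds DNA, into a first and a second disordered region, while the C-terminal part anchors ARID1A in the complex. ARID1B is its paralogue and takes the same place in other copies of the complex, and ARID1A is among the genes most often lost in endometrial carcinoma. ATAC-seq inserts sequencing adapters into accessible DNA with the Tn5 transposase, so that a peak marks an open region. In these bulk libraries a region open in fewer cells and a region less open in each cell cannot be told apart.

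The deposited peak lists differed in length. They held 43190 and 55320 peaks with delIDR1, 76589 and 62091 peaks with WT, and 45286 and 49528 peaks with empty vector. Both delIDR1 lists were shorter than both WT lists, and the delIDR1 and empty-vector lists overlapped in length. The files give no read counts, so the sequencing depth behind these lengths is unknown. The lists, on chromosomes 1 to 22 and X, were therefore compared at an equal length of 19433 peaks, that of the shortest of the 28 lists, taken from the top by the authors' −log10 p. At that length the peaks were narrower with delIDR1, with a median width of 861 and 977 bp, against 1119 and 1053 bp with WT and 1061 and 1179 bp with empty vector. They covered 18.2 and 20.7 Mb with delIDR1, 23.2 and 21.9 Mb with WT, and 21.98 and 24.3 Mb with empty vector. Narrow peaks were not particular to delIDR1. Median widths were 959 and 1114 bp with CBR and 1082 and 1018 bp with DBDmut, which have the same date codes. With another date code, they were 890 and 792 bp with ARID1B and 837 and 931 bp in empty-vector replicates 3 and 4. Width still differed between delIDR1 and the 2 groups it is set against, and its part in the results below was not tested except by the setting of equal covered length.

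The labels were first checked on a stretch of chromosome 1 (hg19, chr1:27049614-27126882) where the ARID1A gene lies, as background knowledge, since no hg19 annotation was used. It was singled out after its values were seen, because 2 of the regions named by rank fell in it. Neither whole delIDR1 list had a peak at the first of them, chr1:27056166-27058096, against a fold enrichment of 7.11 and 6.67 in the WT lists and no peak with empty vector. The second, chr1:27087381-27089691, had no peak with delIDR1, a fold of 6.89 and 5.90 with WT, and narrow peaks of 230 and 194 bp with empty vector. Both DBDmut lists called both of these regions at full width, and neither CBR list called either.

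Further along the same stretch the delIDR1 lists did hold peaks. A peak at chr1:27097696-27101675 stood at rank 1073 of delIDR1 replicate 1 and the matching peak of replicate 2 at rank 733, against ranks 14086 and 12813 with WT and no peak with empty vector. At chr1:27105688-27107224 the ranks were 680 and 1041 with delIDR1 and 13692 and 12713 with WT, while the empty-vector lists had 1 narrow peak of 204 bp in replicate 1 and none in replicate 2. In both CBR lists the peak at this last place was the strongest of the whole list. At these 4 places delIDR1, DBDmut, CBR and WT were each alike in both replicates, while narrow or weak peaks elsewhere in the stretch, and that of empty vector at the last place, were in 1 replicate only for some constructs. Ranks here and below count from the top of whole lists of different lengths, so they place a peak within its own list and do not measure a change. Reads from the construct and from the cells' own gene cannot be told apart in these lists. Of the 3033 regions gained with WT that are described next, 6 lie in this stretch, 3 of them called in both delIDR1 lists and 2 in neither.

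Overlapping peaks of the 6 trimmed lists were merged, and the 23219 merged regions found in at least 2 of the 6 libraries were compared. A region counted as called in a library with a peak sharing 1 bp or more with it. All 6 libraries called 13484 of the regions. Both WT libraries and neither delIDR1 library called 1748 regions, which is 7.53% of all regions. Both delIDR1 libraries and neither WT library called 1281 regions, or 5.52%. Regions lost without IDR1 thus made up 57.7% of the regions that separated the groups. With 1 library or 1 replicate number left out, the first count lay between 1916 and 2752 and the second between 1869 and 2808. A group with a library left out is judged by 1 library alone, a looser rule under which these counts can only rise. The change was over 1.5 times for the first count without replicate number 2 (2752) and for the second without replicate number 1 (2808), without replicate number 2 (2769), without WT replicate 1 (2001) and without WT replicate 2 (1925).

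The balance between the directions depended on how the lists were cut. In lists of 43130 peaks, the length of the shortest of the 6, there were 4415 regions lost with delIDR1 (8.04%) and 3191 called only with delIDR1 (5.81%), a share of 58.0% lost. In whole lists the counts were 13330 (18.3%) and 1043 (1.43%), a share of 92.7% lost. In lists cut to the same covered length, 621 regions were lost and 2053 were called only with delIDR1, a share of 23.2% lost. Lists of equal covered length held 19433 and 16231 peaks with delIDR1, against 14023 and 15035 with WT. No direction of the balance can therefore be given from these lists.

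The 2 classes differed in their calls with empty vector. Of the 1748 regions lost with delIDR1, 1548 (88.6%) were also in neither empty-vector list, and 143 were in both. Of the 1281 regions called only with delIDR1, 783 (61.1%) were called in both empty-vector lists, and 269 were in neither. Of all 23219 regions 16.1% were in neither empty-vector list and 77.3% in both. All regions include the 13484 called in all 6 libraries, which are in both empty-vector lists by definition. Such regions can enter neither class, here or in the other lists below. The shares of all regions are therefore printed for scale, and no excess or lack of empty-vector calls is read from them. In lists of 43130 peaks, 95.5% of the lost regions were in neither list, against 24.4% of all regions, and 71.4% of the delIDR1-only regions were in both, against 71.3% of all. At equal covered length 95.8% of the lost regions were in neither, against 18.7% of all, and 23.2% of the delIDR1-only regions were in both, against 69.1% of all. The shares were lower in shorter lists, at 61.1% of the lost and 39.2% of the delIDR1-only regions with 9716 peaks, and at 42.1% and 31.1% with 5000 peaks. No test was run over regions.

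The regions that set WT apart from empty vector were then followed into the delIDR1 lists. Gained regions, called in both WT and in neither empty-vector library, numbered 3033, which is 13.1% of all regions. Weakened regions, called in both empty-vector libraries and in neither WT library, numbered 2286, or 9.85%. Both delIDR1 libraries called 1020 of the gained regions (33.6%), 1 library called 465, and neither called 1548 (51.0%). Of the weakened regions 783 (34.3%) were still called in both delIDR1 libraries, 680 in 1 and 823 in neither. The share still called in both libraries depended on the lists: it was 14.6% in whole lists, 7.81% in whole lists at a −log10 q of at least 10, and 63.6% at equal covered length. With the libraries of 1 replicate number alone, each group has 1 library, so the regions and the share follow a looser rule. The 1 delIDR1 library then called 58.1% of 3588 weakened regions without replicate number 1. Without replicate number 2 it called 57.1% of 3570. The 2 delIDR1 libraries made the same call at 84.7% of the gained and at 70.3% of the weakened regions. By library, they called 40.4% and 42.2% of the gained and 48.3% and 49.96% of the weakened regions. Of all 23219 regions they called 80.5% and 81.5%. All regions include the 13484 called in all 6 libraries, so these last shares are printed for scale. Set directly against empty vector, both delIDR1 libraries and neither empty-vector library called 1480 regions (6.37%), and the reverse held for 1158 (4.99%).

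To keep a library from being scored on regions defined by itself, regions gained in replicate number 1 were scored in the libraries of replicate number 2, and the other way round. delIDR1 replicate 1 called 44.7% of 3513 such gained regions and delIDR1 replicate 2 called 45.6% of 3527. WT called 89.98% and 91.3% of the same sets, and empty vector called 7.00% and 8.08%. The 3 groups did not overlap, and both delIDR1 libraries stood between WT and empty vector. The mean was 45.2 ± 0.60% with delIDR1 and 90.6 ± 0.93% with WT (SD, n = 2 each). The shares differed by -45.5 points of percent, at p = 0.333 in a two-sided exact permutation test. With empty vector the mean was 7.54 ± 0.76% (SD, n = 2), 37.6 points below delIDR1, at the same exact p = 0.333. With 2 libraries against 2 this is the smallest p the test can give. delIDR1 stood 45.3% of the way from empty vector to WT, 45.5% in replicate 1 and 45.1% in replicate 2. Wilson 95% intervals of the delIDR1 shares, which cover counting error only, reached 1.64 points to either side.

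Weakened regions were scored in the same way, a test added after the data had been seen. delIDR1 called 56.2% of 3588 and 56.7% of 3570 of them, WT called 27.1% and 23.7%, and empty vector called 88.1% and 84.4%. Here too the 3 groups did not overlap. The mean was 56.5 ± 0.34% with delIDR1 and 25.4 ± 2.42% with WT, a difference of 31.0 points, and 86.3 ± 2.60% with empty vector, a difference of -29.8 points (SD, n = 2 each; exact permutation tests, two-sided, both p = 0.333). delIDR1 stood 49.0% of the way from empty vector to WT, with 52.3% in replicate 1 and 45.7% in replicate 2. This place did not hold in every setting. In whole lists delIDR1 called 28.1% and 45.8% of the weakened regions, WT 47.6% and 12.2%, and empty vector 83.7% and 93.7%, so that delIDR1 and WT overlapped and the distance came to 88.1%. Whole lists at a −log10 q of at least 10 gave 91.6%. At equal covered length delIDR1 called 83.7% and 71.1%, WT 24.8% and 29.4%, and empty vector 90.7% and 46.9%, so that delIDR1 and empty vector overlapped and the mean was higher with delIDR1 than with empty vector. Empty-vector replicates 3 and 4, of another date code, called 58.4% and 62.9% of the 2286 weakened regions, against 48.3% and 49.96% with delIDR1. Empty-vector replicates 1 and 2 call all 2286 by definition, and their 88.1% and 84.4% above are of other sets. Replicates 3 and 4 also called fewer of all regions, at 74.1% and 75.8%, against 80.6% in each of replicates 1 and 2. Date code and choice of regions cannot be told apart in these values. How much of the distance between delIDR1 and empty vector comes from the choice of regions was not tested.

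**Figure D1:**
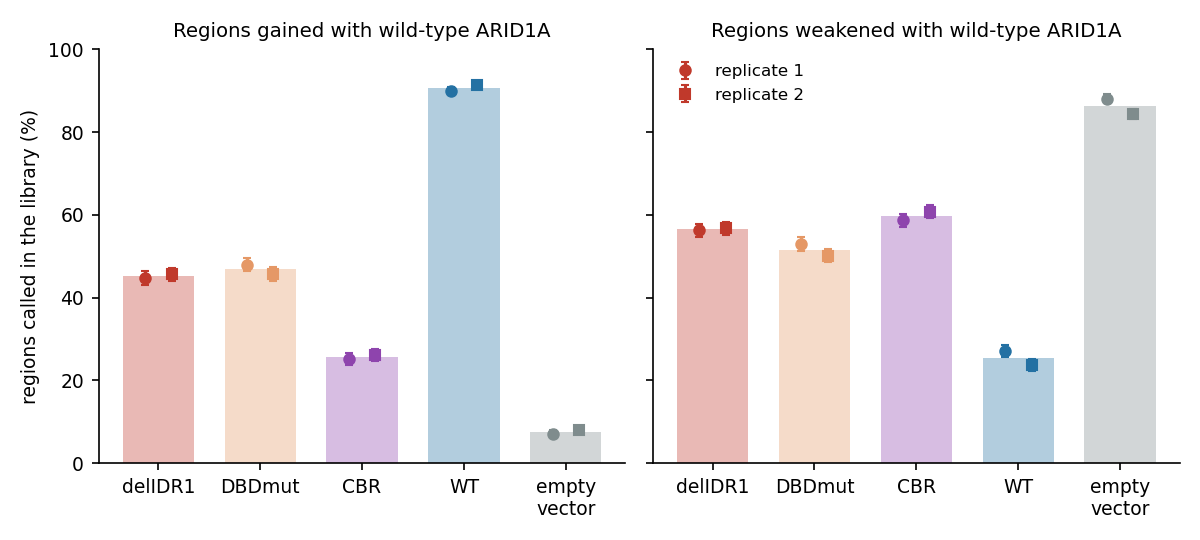
Percent of gained (left) and weakened (right) regions called in each library, with regions defined in the libraries of the other replicate number. Bars are means of 2 libraries, points are libraries and error bars are Wilson 95% intervals; delIDR1 lies between WT and empty vector in both panels, at 44.7% and 45.6% of gained and 56.2% and 56.7% of weakened regions.

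The rule that a region be found in at least 2 of the 6 libraries lets a scored library help to choose the regions, which raises these shares. With regions found in any 1 library, delIDR1 called 36.8% and 37.8% of the gained regions, WT 73.9% and 75.7%, and empty vector 5.75% and 6.70%. The groups again did not overlap, and delIDR1 again stood 45.3% of the way from empty vector to WT. At equal covered length the replicates spread more. delIDR1 then called 74.5% and 55.1% of the gained regions, WT 73.6% and 89.8%, and empty vector 23.5% and 4.94%. delIDR1 and WT overlapped in that setting, with a mean difference of -16.9 points (two-sided exact permutation p = 0.667), and delIDR1 stood 74.98% of the way from empty vector to WT. Over the other settings this place lay between 34.0%, in lists of 5000 peaks, and 58.2%, in lists of 43130 peaks.

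Other constructs with the same date codes were scored on the same regions, also after the data had been seen. The 44.7% and 45.6% of gained regions called with delIDR1 stood against 48.0% and 45.7% with DBDmut, whose ARID domain is altered, and against 25.2% and 26.1% with the CBR truncation. delIDR1 minus DBDmut was -1.68 points on average, -3.22 in replicate 1 and -0.14 in replicate 2, and delIDR1 minus CBR was 19.5 points. The 56.2% and 56.7% of weakened regions called with delIDR1 stood against 53.0% and 50.2% with DBDmut and 58.6% and 60.7% with CBR, with mean differences of 4.89 and -3.23 points. The delIDR1 libraries did not overlap with those of DBDmut or CBR in either set, although delIDR1 and DBDmut nearly met in gained regions in replicate 2. In each of these 4 comparisons the exact permutation p was 0.333, and over the 8 such tests run the Benjamini-Hochberg adjusted p was 0.333 for all. These constructs share the WT and empty-vector libraries that defined the regions.

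The place of delIDR1 was followed over list lengths, of which 5000 and 30000 peaks were added after the data had been seen. In lists of 5000 peaks delIDR1 called 59.5% and 50.1% of the gained regions, WT 71.6% and 77.2%, and empty vector 39.3% and 49.9%. In lists of 30000 peaks the shares were 49.0% and 48.2% with delIDR1, 93.9% and 94.2% with WT, and 2.86% and 3.601% with empty vector. In lists of 43130 peaks they were 56.7% and 55.0% with delIDR1, 93.1% and 93.6% with WT, and 3.59% and 3.78% with empty vector. At every length both delIDR1 libraries lay between both WT and both empty-vector libraries, although delIDR1 and empty vector nearly met in replicate 2 at 5000 peaks. For weakened regions delIDR1 called 44.5% and 48.1% at 43130 peaks, WT 19.2% and 14.9%, and empty vector 93.1% and 94.5%.

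**Figure D2:**
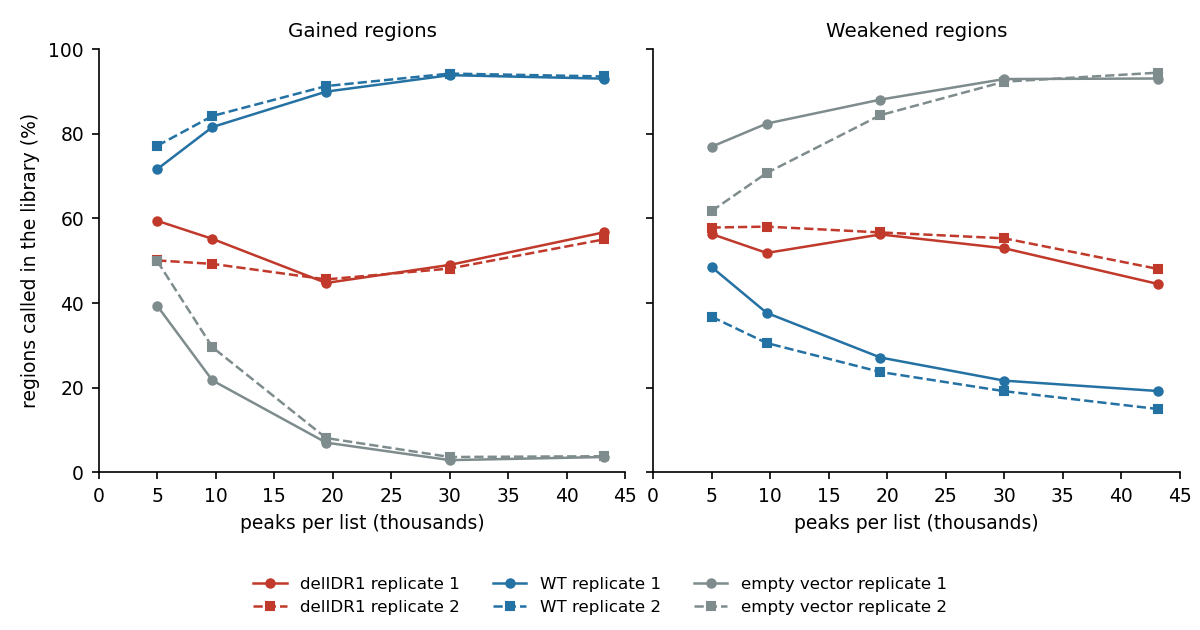
Percent of gained (left) and weakened (right) regions called in each library against the number of peaks kept per list. Each line is 1 library; the delIDR1 lines stay between 44.7% and 59.5% for gained regions, while WT and empty vector are farther apart at 30000 peaks than at 5000.

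Likeness over all regions was measured by the Jaccard index, the number of regions called in both of a pair of libraries over the number called in either. Between replicates it was 0.853 with delIDR1, 0.875 with WT and 0.922 with empty vector. Within replicate number 1, delIDR1 had an index of 0.743 with WT and 0.785 with empty vector. Within replicate number 2 the values were 0.752 and 0.790. At 19433 peaks delIDR1 was thus more like empty vector than like WT in both replicates, with differences of -0.042 and -0.038. In lists of 43130 peaks the order turned round in both: the index was 0.705 and 0.709 with WT, against 0.661 and 0.690 with empty vector. WT and empty vector were the least alike of the 3 pairs at both lengths, at 0.681 and 0.680 in lists of 19433 peaks and at 0.547 and 0.532 in lists of 43130.

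**Figure D3:**
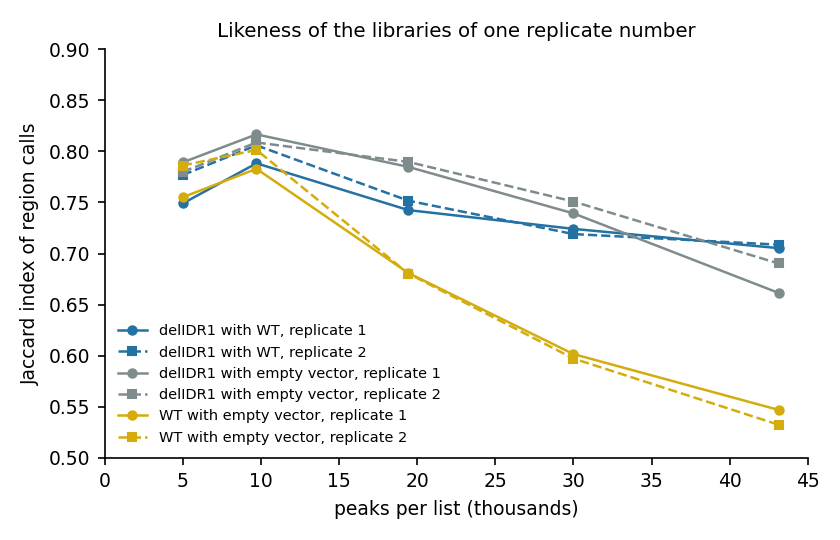
Jaccard index of the region calls of 2 libraries with the same replicate number, against the number of peaks per list; the vertical axis starts at 0.5. delIDR1 was closer to empty vector up to 30000 peaks and closer to WT at 43130 peaks, in both replicates. In replicate 2 the index with WT and that with empty vector were nearly equal at 5000 and 9716 peaks, with differences of -0.0030 and -0.0028. Replicate 1 had -0.040 and -0.028 at these lengths.

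Gained regions that ranked high with WT were kept more often without IDR1, with exceptions at both ends. The 3033 regions were put in order of their mean rank in the WT lists and cut into 10 groups of equal size. Both delIDR1 libraries called 83.2% of the strongest group, 57.2% of the next, 33.3% of group 5 and 8.91% of the weakest, and the share that neither called was 11.2% in the strongest and 76.6% in the weakest group. The 2 libraries gave nearly the same shares, 85.2% and 86.8% in the strongest group and 16.5% and 15.8% in the weakest. A region that ranks near the end of the WT list needs only a small drop to leave a list of fixed length, so this order is in part set by the length of the list. In the longer lists of 43130 peaks, delIDR1 replicate 1 called 99.3% of the strongest group and 86.1% of the weakest, and replicate 2 called 99.0% and 83.2%.

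**Figure D4:**
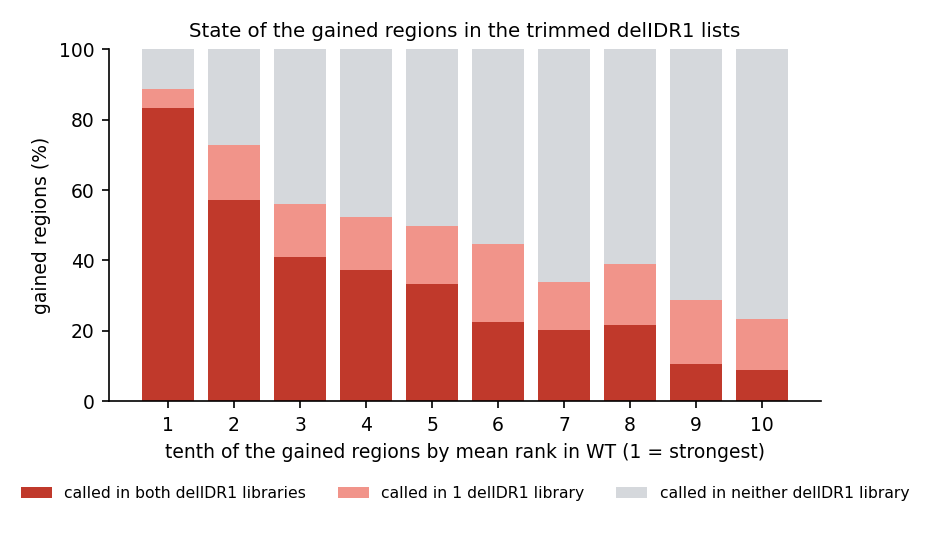
Share of the gained regions called in both, in 1 or in neither delIDR1 library at 19433 peaks per list, for 10 groups of equal size by mean rank in the WT lists, strongest at the left. The share called in both delIDR1 libraries is 83.2% in the strongest group and 8.91% in the weakest.

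Most of the gained regions not kept at equal length had a delIDR1 peak further down the list. Of the 1548 gained regions that neither trimmed delIDR1 list held, the whole delIDR1 lists called 85.2% and 93.5%, against 16.1% and 19.6% in the whole empty-vector lists. Cut to 43130 peaks, delIDR1 called 85.2% and 82.8% of them and empty vector 14.1% and 13.3%. The groups did not overlap at either length. Of all 23219 regions, whole lists called 97.9% and 99.2% with delIDR1 and 90.1% and 90.6% with empty vector. Among the 1548 regions not kept, 88 were in neither whole delIDR1 list, against 136 of all 23219 regions. The trimmed lists of all 3 groups chose the 1548 regions, so that any delIDR1 or empty-vector peak at them ranks past 19433 by construction. These shares are a description.

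Kept regions more often had a weak peak with empty vector. Whole empty-vector lists called 48.8% and 51.7% of the 1020 kept regions, against the 16.1% and 19.6% of those not kept and 90.1% and 90.6% of all regions. The kept regions also ranked higher with WT, at a median mean rank of 11058 against 14977, so the classes differed in strength. Kept regions were a little wider, with a median of 933 bp against 857 bp. Kept regions merge WT and delIDR1 peaks, while those not kept merge WT peaks only, so the merging in part sets this order. The median distance to a region open in all 6 libraries was 39.1 kb for kept and 47.7 kb for not kept regions. Another gained region lay within 50 kb for 31.3% of the kept and 30.9% of the regions not kept, and for 18.98% of all regions.

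Over the chromosomes with more than 50 gained regions, the kept share lay between 18.5% of 54 on chromosome 13 (Wilson 95% interval 10.4 to 30.8%) and 46.9% of 130 on chromosome 12 (38.6 to 55.5%). On chromosome 5, where gained regions were 21.3% of all regions, 31.2% of 321 were kept.

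The wild-type paralogue gave a contrast with libraries of its own. A region was taken as gained with ARID1B where both ARID1B libraries and neither empty-vector replicate 3 nor 4 called it. Of the gained regions kept with delIDR1, 70.4% were gained with ARID1B, against 59.5% of those not kept and 9.21% of all 23219 regions. Regions weakened with ARID1B were 35.0% of the 783 weakened regions still called with delIDR1 and 29.0% of the 823 that neither delIDR1 library called, against 10.1% of all regions. All regions are no like baseline here. They include the 13484 regions called in all 6 libraries, of which 0.43% were gained and 3.72% weakened with ARID1B. Empty-vector replicates 3 and 4 called on average 3.66% of the gained regions, against 74.9% of all regions. Both definitions of gained thus largely share the missing empty-vector call. The trimmed ARID1B lists called 83.2% and 81.2% of the kept and 67.6% and 69.1% of the regions not kept, against 69.8% and 68.4% of all regions. Empty-vector replicates 3 and 4 called 5.10% and 4.61% of the kept regions, 2.07% and 1.61% of those not kept, and 74.1% and 75.8% of all regions. The level of all regions is thus no floor for ARID1B calls at gained regions. In both classes of gained regions the ARID1B lists called far more than these empty-vector lists. Of the 269 regions called with delIDR1 and with neither WT nor empty vector, 4.09% were gained with ARID1B.

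Single regions show the range. Among gained regions not kept, the best ranked with WT was chr5:141595374-141596147. It stood at rank 30782 and 35585 in the whole delIDR1 lists, against rank 3352 and 4470 with WT, and had no peak with empty vector. The 8 best-ranked regions of this class had ranks of 20483 to 40071 with delIDR1 and of 3352 to 7281 with WT, and 7 of the 8 had no peak in either empty-vector list. Both ARID1B lists called chr5:141595374-141596147 at 19433 peaks.

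A few strong gained regions had no peak at all with delIDR1. Outside the ARID1A stretch, 3 of the named regions had a peak in no whole delIDR1 list and in no whole empty-vector list. With WT, chr10:95506601-95507121 stood at rank 10066 and 8518. The WT ranks of chr1:40733228-40733877 were 8904 and 12066, and those of chr7:133775969-133776588 were 11255 and 10490. Each was called in both trimmed ARID1B lists, which the 2 regions of the ARID1A stretch were not.

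Kept regions were among the strongest gained ones. The region chr6:15504394-15505918 stood at rank 2647 and 3132 with delIDR1, against 509 and 815 with WT, and was in no empty-vector list. The region chr7:105704929-105706273 stood at rank 1029 and 1506 with delIDR1, against 1620 and 2301 with WT. By contrast chr7:101170945-101171848 was kept at rank 12319 and 8682 with delIDR1, against 2504 and 1411 with WT. These regions were chosen for their rank with WT, which favours higher places in the WT lists, so no order of the groups is read from them.

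Regions called only with delIDR1 were narrower than regions at large. Those of the 1281 that were in neither empty-vector list had a median width of 479 bp, against 682 bp for those in both and 1145 bp for all regions. A region spans the merged peaks of all lists that call it, so a region called in fewer lists tends to be narrower. This order of widths is therefore in part set by the merging, and the widths are a description. Among all regions under 500 bp wide, 22.3% were called only with delIDR1, against 1.28% of those of 1000 to 2000 bp. Weakened regions, called with empty vector and not with WT, were 23.8% and 4.05% of the same width classes. These classes overlap, since 783 of the 1281 regions are weakened ones, but both delIDR1 libraries called only 29.4% of the weakened regions under 500 bp. Narrow width was thus shared with weakened regions outside the class. Regions called in both WT and neither delIDR1 library had no such excess, at 5.20% under 500 bp and 5.28% at 1000 to 2000 bp. Gained regions were 7.56% and 9.58% of these width classes. At 500 to 1000 bp the shares were higher, at 12.8% and 22.7%. The best-ranked regions in no WT or empty-vector list included chr7:81113462-81114082, at rank 9630 and 10060 with delIDR1, against 19920 and 19610 with WT, just past the cut at 19433, and with no peak with empty vector. All 5 named regions of this class had a peak in both whole WT lists, at ranks of 19610 to 25616, and ranks of 7449 to 12248 with delIDR1. Of the 269 such regions 243 (90.3%) were in both whole WT lists and 5 in neither. Of all 23219 regions 97.8% were in both and 163 in neither.

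Narrow calls with delIDR1 extended to shared open regions. In the 13484 regions called in all 6 libraries, peaks covered 74.5% and 82.4% of the merged length with delIDR1, against 89.1% and 84.2% with WT and 87.1% and 93.5% with empty vector. The delIDR1 values lay below both of the other groups. The kept share of gained regions rose over the width classes in the same lists, with 22.95% of those under 500 bp and 50.9% of the 57 regions of 2000 bp or more. A kept region merges WT and delIDR1 peaks, and one not kept merges WT peaks only. Being kept thus itself widens a region, and this rise is in part set by the merging.

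Among the weakened regions named by rank, chosen for a high place with empty vector and no call with WT, the region chr10:73025390-73026685 stood at rank 10944 and 12487 with delIDR1, 28872 and 22538 with WT, and 1318 and 1622 with empty vector. The region chr4:75397215-75398408, which neither trimmed delIDR1 list held, had rank 24880 and 22204 with delIDR1, rank 62493 in WT replicate 1 and no peak in WT replicate 2, and rank 6847 and 7625 with empty vector. No order of the groups is read from these ranks, since the choice of the regions largely fixes it. At full length both delIDR1 lists called 713 (86.6%) of the 823 weakened regions not held at equal length, and both WT lists called 644 (78.3%) of them. Of all regions both whole delIDR1 lists called 97.7% and both whole WT lists 97.8%.

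**Figure D5:**
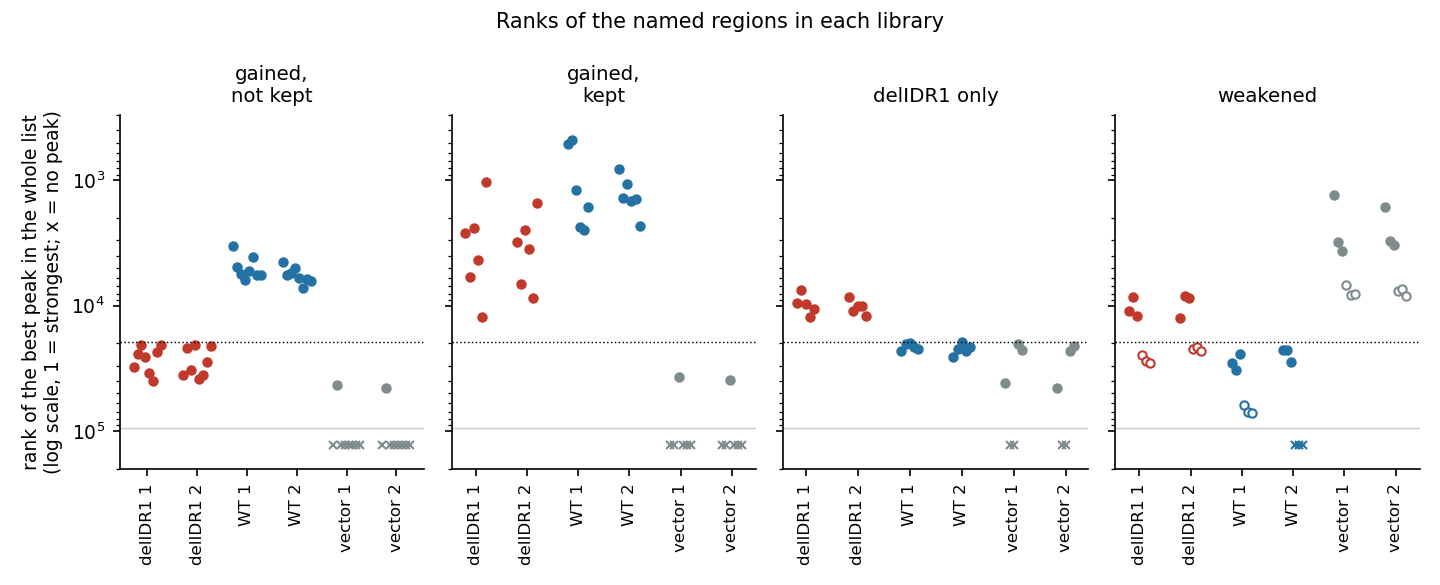
Rank of the best peak in the whole list of each library (log scale, 1 is the strongest, crosses mark no peak) for the 8 gained regions not kept, 6 kept, 5 called with delIDR1 only and 6 weakened regions named by rank; open circles are weakened regions that neither trimmed delIDR1 list held. The dotted line is the equal list length of 19433 peaks; regions not kept have ranks of 20483 to 40071 with delIDR1, past that line by their definition.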

How the data were processed

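Peaks were called per library on hg19 with MACS2 after Bowtie2 alignment, with Picard 2.8.0 and SAMtools 0.1.19, per the submitters' processing notes. For options, a control and the handling of Tn5 cut sites the sources used here state nothing. The titles say ATAC-seq, while the series' design text describes CUT&Tag. The deposited broad peak lists give, per the authors' files, a fold enrichment (a ratio), a −log10 p and −log10 q per peak, and a score that was not used. The lowest −log10 q was near 3 in every list used. Folds and −log10 p values are the authors' own and describe or rank peaks within a list only.

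Lists were cut to equal length, merged and called with Python 3.11.15 and numpy 2.4.6, and tests were exact permutations over libraries, run with the same tools. Wilson intervals were computed with scipy 1.17.1. The procedure was tested on simulated lists with known overlaps. No p was computed over regions, which are not replicates. Replicate numbers pair the libraries by the date codes in the peak names: deviations of same-numbered libraries from their group means correlated at -0.02 between delIDR1 and WT, 0.21 between delIDR1 and empty vector and 0.03 between WT and empty vector over 20225 regions. Named regions are the best by mean rank in WT among gained regions not kept (8), in no whole delIDR1 list (5) and kept (6), by rank in delIDR1 among regions in no WT or empty-vector list (5), and by rank in empty vector among weakened regions still called (3) and not called (3). Chromosome 8 was counted but not named. The groups, lists and rules were chosen with earlier results of these data known. Gene assignment, gene lists, motifs and cell type markers were not analysed here, since they need an hg19 annotation or genome. Alternatives are another list length, whole lists, a stricter q, equal covered length, ranking by fold, 50% overlap, 500 bp windows, other region sets, left-out libraries and pairing by replicate number.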

Additional observations from a re-analysis of the deposited data

How the results depend on the processing

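Counts of regions called in both WT and neither delIDR1 library (1748), and of the reverse (1281), changed with the lists: 278 and 280 at 5000 peaks, 547 and 498 at 9716, 3165 and 2340 at 30000, 4415 and 3191 at 43130, 4344 and 445 in whole lists at a −log10 q of at least 10, 621 and 2053 at equal covered length, and 6671 and 2702 in 500 bp windows; whole lists gave 13330 for the first. The share of gained regions kept (33.6%) was 36.9% at 9716 peaks, 39.2% at 30000, 45.1% at 43130, 27.98% in whole lists, 24.1% at the stricter q, 49.7% at equal covered length, 28.4% ranked by fold, 29.95% at 50% overlap and 29.2% in windows. The Jaccard index with WT minus that with empty vector turned positive at 43130 peaks (0.031); it was -0.022 at 5000, -0.016 at 9716, -0.024 at 30000, -0.011 in whole lists, -0.033 at the stricter q, -0.025 at equal covered length, -0.054 ranked by fold, -0.035 at 50% overlap and -0.024 in windows. The cause of these shifts was not tested. With libraries left out from the calls, the counts lay between 1916 and 2752 and between 1869 and 2808, and the kept share between 34.2% and 45.4%. These counts and shares then rest on a looser rule, with 1 library for a group that lost one. The recovery difference of delIDR1 from WT lay between -45.9 and -45.0 points and from empty vector between 37.2 and 38.0 points, and the index difference between -0.042 and -0.038. Over all settings these recovery differences kept their sign, at -54.3 to -16.9 and 10.1 to 52.2 points. With the replicate block (pairing by number) p was 0.5, the smallest that 2 pairs allow, for differences of -45.5 and 37.6 points, so that no setting of this design can pass 0.05. Depth is unknown, so a missing peak may be a missed one.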
